A study of Mus musculus with 4 samples.

Results

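Slamf1-positive haematopoietic stem cells (HSCs) were single HSCs of mouse bone marrow in which the transcript of Slamf1, the gene for the surface receptor CD150, had a raw count of at least 3. They were chosen by that count alone, and they made up 59 of the 277 cells kept for analysis. The comparison cells were the 204 in which no Slamf1 count was recorded, called Slamf1-zero cells here, and 14 cells with a count of 1 or 2 were left out. The cells came from wild-type mice aged 8 weeks and were sorted as ESLAM SK cells: EPCR+ (CD201+), Lin-, Kit+, Sca1+, CD150+ and CD48-, either CD27- or CD27+. Marrow was enriched on c-Kit microbeads before the sort, and RNA of single cells was read by a modified Smart-seq2 (STRT-seq) protocol in 4 libraries, numbered 1 to 4. No genotype, drug or time differed between the libraries, each of which the labels describe as holding CD27- and CD27+ cells, and no source gives the CD27 gate of a single cell. Every cell, on either side, had passed the CD150 gate. A Slamf1 count of 0 therefore means that no transcript was captured from a cell sorted as CD150 protein-positive, and it does not mark a CD150-negative cell.

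CD150 belongs to the signalling lymphocytic activation molecule (SLAM) family of immunoglobulin-type receptors. Most of these receptors bind a copy of themselves on the neighbouring cell, and in lymphocytes their tails recruit SAP-type adaptors, Fyn kinase and SH2-domain phosphatases. In mouse marrow CD150, together with the absence of CD48, is a standard marker of HSCs, and high surface CD150 is known to go with myeloid- and platelet-leaning output while low CD150 goes with lymphoid-leaning output. Slamf1 lies on chromosome 1 at 171767127 to 171801184, plus strand (ENSMUSG00000015316.11, protein-coding, GRCm38), and no other annotated gene overlaps it. Its relatives Ly9, Cd48 and Cd84 lie beside it on the same chromosome, starting at 171588624, 171682009 and 171839697.

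The Slamf1-positive cells numbered 22 in library 1, 15 in library 2, 12 in library 3 and 10 in library 4. As shares of the kept cells these were 29.7% (95% exact binomial interval 19.7% to 41.5%), 22.4% (13.1% to 34.2%), 16.9% (9.05% to 27.7%) and 15.4% (7.63% to 26.5%), and their mean was 21.1% ± 6.49 (SD, n = 4). The intervals of all 4 libraries overlapped and cover counting error only. With a count of at least 1 the mean share was 26.1% ± 6.98, and with at least 10 it was 16.5% ± 6.40. After each cell had been thinned at random to 30000 counts, 16.4% ± 6.93 of cells still held at least 3 Slamf1 counts and 21.7% ± 8.39 held at least 1.

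Slamf1 counts among the positive cells ran from 3 to 132 with a median of 25. All values of Slamf1 that follow describe the choice of cells, since the count defined them, and none was tested. Scaled to the total of each cell, Slamf1 reached 16.8 to 1623 CPM (counts per 1000000 counts), with a median of 203. The median was 232 CPM in library 1, 185 in library 2, 230 in library 3 and 180 in library 4, so that a typical positive cell stood at a similar level in every library. 13 positive cells had counts of 3 to 9 and 46 had at least 10, of which 13 had at least 50. Just inside the threshold lay 2 cells with a count of 3 and 2 with a count of 4. Just outside it lay 2 cells with a count of 2, and 12 more had a count of 1. Few cells thus sat at the threshold, and most positive cells were far above it, as the plot of single-cell counts shows.

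**Figure D1:**
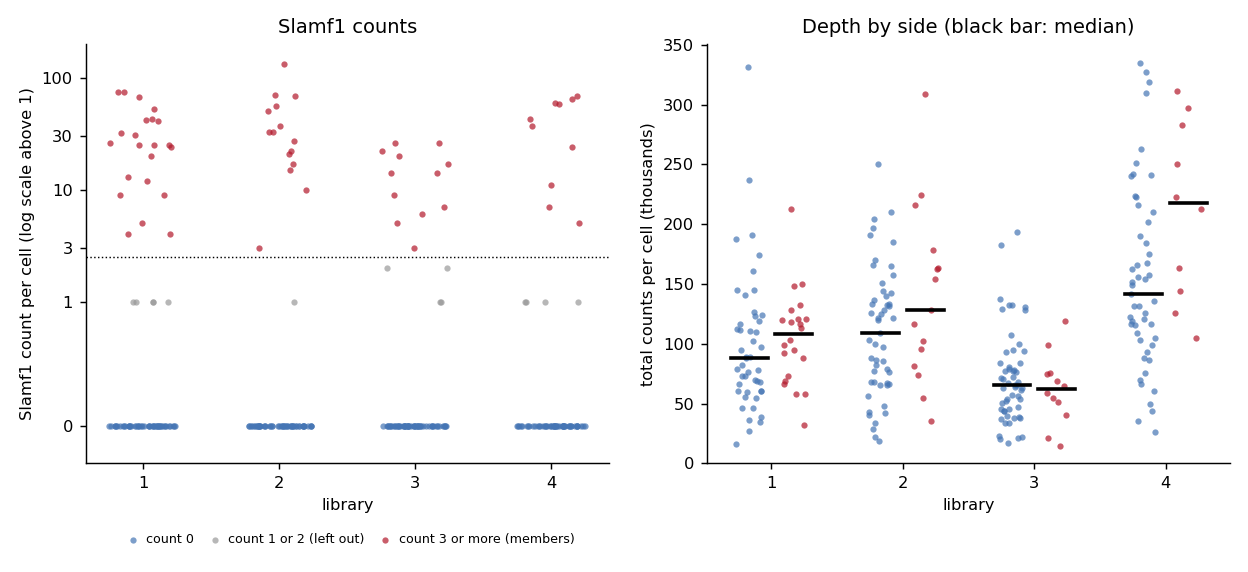
Left, raw Slamf1 count of every kept cell (log scale above 1) by library: 204 cells at 0, 14 at 1 or 2 and 59 at 3 or more (members), the dotted line marking the threshold. Right, total counts per cell (in units of 1000) on both sides in each library, with black bars at the medians: the Slamf1-positive median was higher in libraries 1, 2 and 4 and lower in library 3.

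Depth was unequal between the sides. The median total per cell was 107965 counts in Slamf1-positive against 88391 in Slamf1-zero cells of library 1, 128414 against 108910 in library 2, 62041 against 65255 in library 3 and 217522 against 141404 in library 4. The mean difference was 27996 counts, higher in 3 of 4 libraries (exact sign-flip permutation test, two-sided, p = 0.25, where 4 libraries allow no p below 1 in 8). Genes detected per cell differed by 190 in the mean of the library medians, and by 117 after thinning to equal depth (exact p = 0.25 for both). The mitochondrial share of counts was 1.35% ± 0.0575 in positive and 1.41% ± 0.107 in zero cells, and the ribosomal protein share was 18.5% ± 0.585 and 18.6% ± 0.393 (SD, n = 4, exact p = 0.375 and 1). The summed Slamf1-positive cells held 743692 to 2312974 counts per library and the summed Slamf1-zero cells 3934315 to 7902425, so the positive side was the less deeply sampled. In libraries 2 and 4, 2 runs of 8 consecutively numbered cells that stood apart in an earlier analysis were left out by the rule. They held 1 cell with a Slamf1 count of at least 3, and keeping them gave a share of 20.5% ± 6.47.

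Sorting antigens and other HSC genes were found on both sides. Procr, which encodes the sorting antigen EPCR, stood at 264, 327, 305 and 293 CPM in the Slamf1-positive cells of libraries 1 to 4 and at 281, 352, 250.1 and 338 CPM in the Slamf1-zero cells. The log2 difference, positive minus zero, was -0.02 ± 0.18 (SE), and the ranges of the sides overlapped. For Ly6a, the gene of the Sca1 antigen, it was 0.04 ± 0.19, and for Kit, the stem cell factor receptor, -0.40 ± 0.25. The stem cell transcription factors Mecom (0.06 ± 0.21) and Hlf (-0.13 ± 0.17) differed by less than 2 SE. Fgd5, a reporter locus of HSCs, was at 0 in the positive cells of library 4 and stood at 16.9, 35.3, 82.02 and 0 CPM over the 4 libraries, against 25.8, 29.8, 45.2 and 31.00 CPM in zero cells. Both sides carried HSC markers, and 3 further genes of the HSC identity list with an unadjusted p below 0.05 (Ifitm1, Mllt3 and Pdzk1ip1) are given below.

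Markers of other cell types were low on both sides. Summed over the list, B cell markers stood at 101 ± 31.6 CPM in Slamf1-positive and 102 ± 10.03 CPM in Slamf1-zero cells (SD, n = 4), and 1 of 6 matched genes was abundant enough to be tested. Ms4a1, the gene of the B cell antigen CD20, had counts in 1 positive cell and in no zero cell. Macrophage markers summed to 36.4 ± 15.7 and 22.6 ± 15.4 CPM, stromal markers to 40.05 ± 28.6 and 30.9 ± 18.2 CPM, and the 1 matched mast cell and basophil marker was at 0 in all positive cells. The T and NK cell list summed to 73.96 to 209.8 CPM over the libraries in positive cells and 24.5 to 95.1 CPM in zero cells, higher in 4 of 4 libraries. The sums were 151, 210, 73.96 and 133 CPM in positive cells of libraries 1 to 4 and 95.1, 93.1, 39.9 and 24.5 CPM in zero cells. Klrb1c, the gene of the NK receptor NK1.1, made up most of the sum on both sides of every library, so the sums describe mainly that gene. The T cell gene Cd3e had counts in 1 positive cell and in no zero cell. Klrb1c stood at 119, 193, 48.4 and 132 CPM in positive and 78.99, 50.9, 27.96 and 14.6 CPM in zero cells (1.63 ± 0.48, unadjusted p = 0.0057, edgeR), and it overlaps another annotated gene, Gm44511, on its own strand. Endothelial markers, several of which HSCs also express, summed to 747 ± 45.1 and 624 ± 126 CPM, with Cdh5 found in 1 cell on each side. The part of these marker genes in the results below was not tested.

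No gene passed the test between Slamf1-positive and Slamf1-zero cells. Counts were summed per library and side, and edgeR's quasi-likelihood test with library as a block called 0 of 9776 genes (0%) at a Benjamini-Hochberg adjusted p below 0.05, Slamf1 itself being left out. Without adjustment 364 genes (3.72%) had a p below 0.05, of which 112 (1.15%) were higher and 252 (2.58%) lower in the positive cells. DESeq2 on the same sums called 38 genes, 9 higher and 29 lower. The level differed in the same direction in 4 of 4 libraries for 1378 genes (14.1%), 400 of them higher and 978 lower in the positive cells. For 121 genes (1.24%) all 4 positive sums lay above all 4 zero sums, and for 345 (3.53%) below. The median log2 difference of all genes tested was -0.25, and -0.10 among the 5390 genes found in 20% of cells, so the sparse genes of the smaller positive sums lay below 0 on the whole. The genes with the lowest p in each direction are given below as values. A difference between such sums can come from more cells with the transcript or from more counts per cell.

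**Figure D2:**
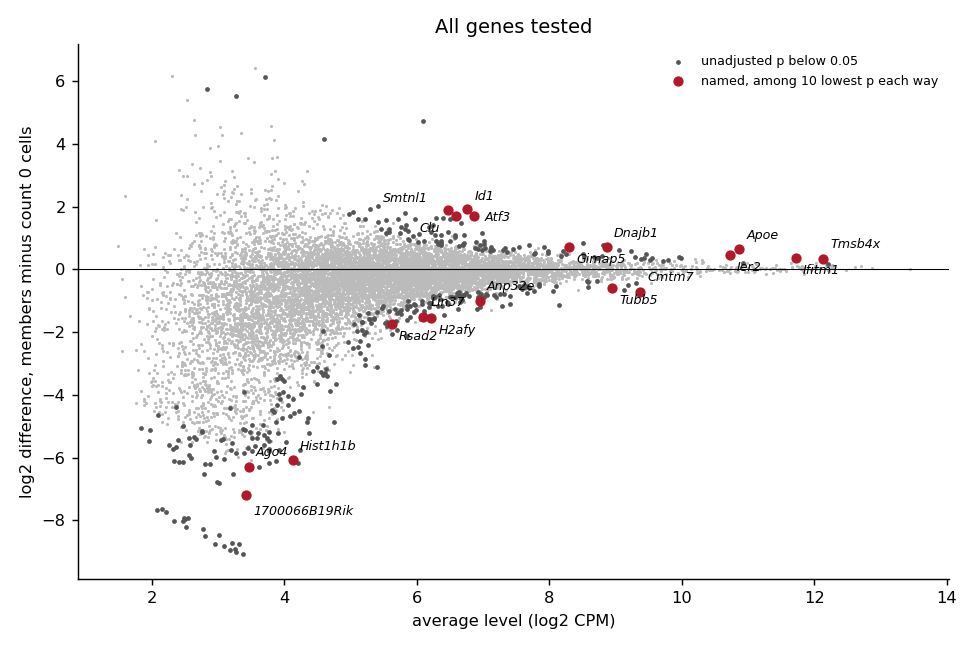
Log2 difference, Slamf1-positive minus Slamf1-zero cells, against the average level (log2 CPM) for the 9776 genes tested. Dark points are the 364 genes with an unadjusted p below 0.05, red points those named among the 10 with the lowest p in each direction, and the large negative values lie among genes of low level.

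Apoe had the lowest p. It encodes apolipoprotein E, a lipid carrier and a gene of the dormancy list, and lies on chromosome 7 at 19696109 to 19699188, minus strand. Its level was 2070.1, 2340.4, 2461 and 2120.2 CPM in the Slamf1-positive cells of libraries 1 to 4 and 1309, 1402, 1482 and 1648 CPM in the Slamf1-zero cells. All 4 positive values lay above all 4 zero values. The log2 difference was 0.64 ± 0.09 (SE), with an unadjusted p of 1.95e-05 and an adjusted p of 0.19 in edgeR's quasi-likelihood test. Apoe was found in 59 of 59 Slamf1-positive cells and 200 of 204 Slamf1-zero cells, and no single cell held more than 7.88% of its counts on the positive side. Cells with Slamf1 counts of 1 or 2, pooled, stood at 1564 CPM, positive cells with counts of 3 to 9 at 1844 CPM and those with at least 10 at 2279 CPM. These classes rest on the Slamf1 count that chose the cells, and those with at least 10 were 46 of the 59 positive cells. The cells were pooled over libraries of unequal depth, and the order of the values was not tested. Apoe was called by DESeq2, without a filter on low counts (adjusted p = 0.0106, edgeR) and when each cell weighed the same (adjusted p = 0.000292, limma). Over all alternatives its log2 difference ranged from 0.46 to 0.89 and its adjusted p from 3.31e-08 to 0.999.

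Of the other 9 genes with the lowest p among those higher in positive cells, Ifitm1, Gimap5, Tmsb4x, Dnajb1, Clu and Smtnl1 also had sides that did not overlap, as 1.24% of all genes did in that direction. These genes were picked for a low p, so their lack of overlap is no separate evidence. DESeq2 called Ier2, Tmsb4x (adjusted p = 0.00587), Ifitm1 (0.0235), Smtnl1 (0.0321), Atf3 and Id1, and it did not call Gimap5, Dnajb1 or Clu. Ifitm1, an interferon-induced membrane protein gene with a high level in HSCs, stood at 3755, 3594, 4530.1 and 3216 CPM in positive and 2577, 3187, 2814 and 3128 CPM in zero cells (0.38 ± 0.10). In library 4 the sides were close, and the gap was widest in library 3. Gimap5, which encodes a GTPase that supports lymphocyte survival, stood at 383, 327, 448 and 391 against 237, 225, 247 and 236 CPM (0.72 ± 0.17). It shares its locus with the annotated gene Gm28053. Tmsb4x, the gene of the actin-binding peptide thymosin beta 4, was at 5262, 4454, 4572 and 5449 against 3649, 4089.5, 4081 and 4087 CPM (0.32 ± 0.08), and reads of its processed copies elsewhere in the genome could be counted with it. Unadjusted p-values of these 3 genes in edgeR were 0.00319, 0.00133 and 0.00196.

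Clu, Smtnl1, Id1 and Atf3 had larger differences at lower levels. Clu encodes the secreted chaperone clusterin, found in platelets and named in signatures of aged HSCs. It stood at 156, 150.2, 141 and 102 CPM in positive and 71.7, 75.2, 55.9 and 8.73 CPM in zero cells (1.71 ± 0.46), and after thinning 35.1% of positive and 15.5% of zero cells held a count. Smtnl1, a smoothelin-like gene of muscle, stood at 92.95, 134, 160.0 and 153 against 68.9, 33.8, 47.5 and 14.05 CPM (1.91 ± 0.48), and every positive value was above every zero value. Id1, an inhibitor of basic helix-loop-helix factors and a target of BMP signals, was at 136, 313, 72.6 and 117 against 141, 41.4, 16.3 and 21.8 CPM (1.92 ± 0.48), with library 1 in the opposite order. Atf3, a stress-induced transcription factor gene, was at 210.1, 392, 67.2 and 11.8 against 117, 108, 17.5 and 2.40 CPM (1.71 ± 0.34). The ranges of Atf3 overlapped, and 1 cell held 51.3% of its counts on the positive side.

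**Figure D3:**
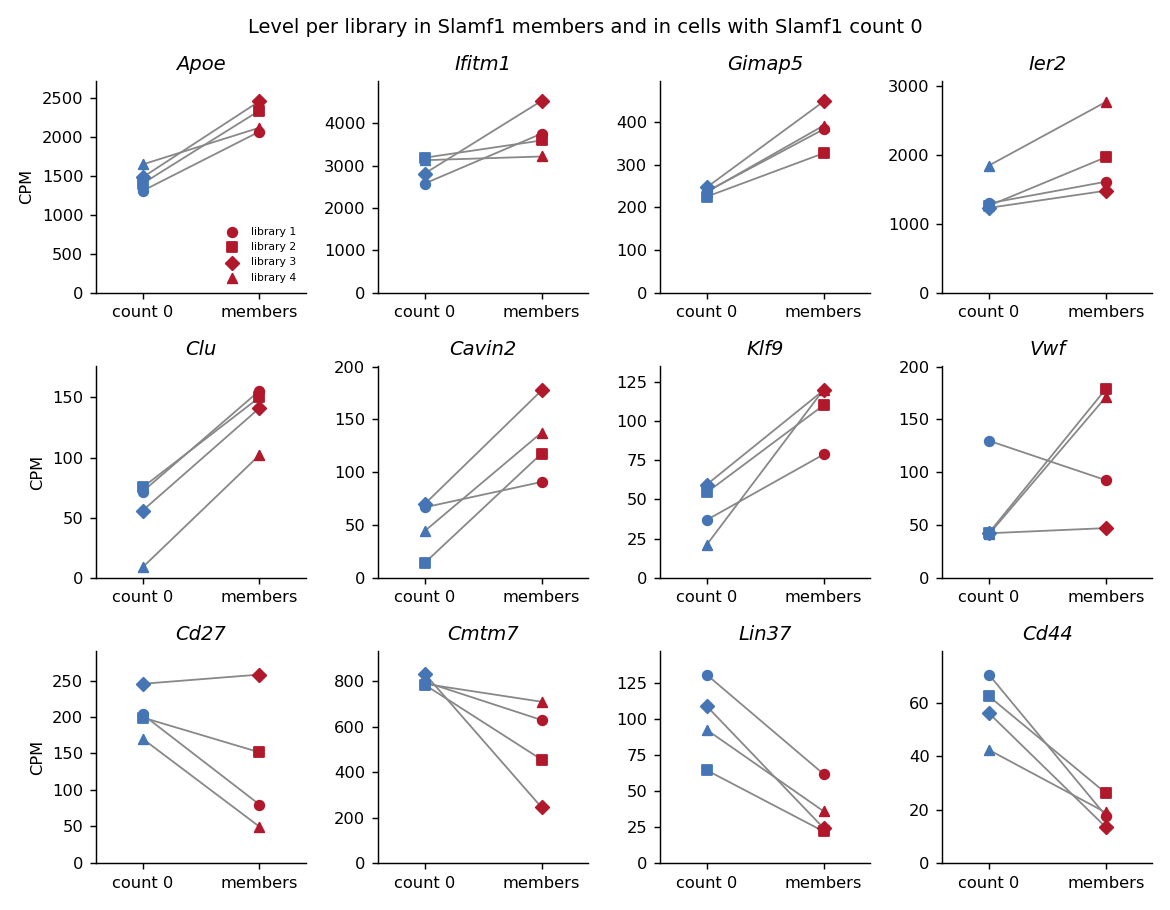
Level (CPM) of 12 genes in Slamf1-zero (blue) and Slamf1-positive cells (red), each line joining the sides of 1 library. Apoe, Ifitm1, Gimap5, Clu, Cavin2 and Klf9 are higher on the positive side of all 4 libraries without overlap, as were 1.24% of all genes. Cmtm7, Lin37 and Cd44 are lower in all 4 without overlap, as were 3.53% of all genes. Vwf and Cd27 each have 1 library in the opposite order. The 12 genes were named for a low p or as list members, so a lack of overlap is no separate evidence.

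In the immediate early and dissociation list 8 of 24 tested genes had an unadjusted p below 0.05 with a higher level in positive cells, where 1.15% of all genes did, and 0 with a lower one. Their list had a median log2 difference of 0.21. The 8 were Atf3, Ier2, Id1, Dnajb1, Klf2, Nr4a1, Jun and Zfp36. After adjustment edgeR called none of them, and DESeq2 called Ier2 (adjusted p = 0.00409), Atf3 (0.0121) and Id1 (0.0287). Such genes are induced within minutes by stimuli and also by tissue dissociation. Ier2 stood at 1607, 1961, 1476 and 2762 CPM in positive and 1295, 1259, 1228 and 1841 CPM in zero cells (0.47 ± 0.10), higher in 4 of 4 libraries. Dnajb1, which encodes a heat shock co-chaperone, stood at 541, 524, 529.8 and 664 against 388, 449, 223 and 379 CPM (0.70 ± 0.18). Klf2 (0.57 ± 0.17), Nr4a1 (1.15 ± 0.41) and Jun (0.18 ± 0.07) were higher in 3 of 4 libraries, with library 1 in the opposite order. Fos, the most used marker of this response, had 0.14 ± 0.08 (unadjusted p = 0.107, edgeR). The list summed to 21772 ± 4030.3 CPM in positive and 18314 ± 1462 CPM in zero cells, higher in 3 of 4 libraries. The part of cell handling in these values was not tested.

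In the quiescence and dormancy list 5 of 22 tested genes had an unadjusted p below 0.05 and a higher level in positive cells (1.15% of all genes did), 0 were lower, and the median log2 difference was 0.17 against -0.25 over all genes. Besides Apoe these were Klf9, Nr4a1, which the immediate early list also holds, Cyp26b1 and Aldh1a1. At any p, 15 genes of the list lay above 0 and 7 below. Among the latter was Rarb, a retinoic acid receptor gene (higher in 1 of 4 libraries, unadjusted p = 0.0577, edgeR). For the list's 18 genes found in 20% of cells the median was 0.22, against -0.10 over all such genes. Klf9, a Krüppel-like factor gene, stood at 78.7, 110.1, 119.7 and 120.0 CPM in positive and 36.9, 54.5, 59.5 and 21.1 CPM in zero cells (1.41 ± 0.42), with no overlap, as for 1.24% of all genes. Cyp26b1, the enzyme that degrades retinoic acid, stood at 16.4, 114, 184 and 75.6 against 17.2, 12.5, 32.03 and 48.2 CPM (1.60 ± 0.61), and library 1 differed little. Aldh1a1, which makes retinoic acid, stood at 73.9, 167, 71.3 and 25.99 against 32.8, 18.6, 48.5 and 14.4 CPM (1.42 ± 0.55), higher in every library. Summed over the list, positive cells held 7730.0 ± 933 CPM and zero cells 6204 ± 61.4 CPM, higher in 4 of 4 libraries without overlap. Apoe alone gave 2248 and 1460.2 CPM of these means. As the gene of lowest p it was apart between the sides already, so the lack of overlap of the sums is no separate evidence about the list. Cdkn1c, the gene of the cell cycle inhibitor p57, was found in 15 of 59 Slamf1-positive cells and 49 of 204 Slamf1-zero cells (0.48 ± 0.55).

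Platelet genes were split. Of 20 tested genes of the megakaryocyte and platelet list, Clu and Cavin2 had an unadjusted p below 0.05, both higher in positive cells, where 1.15% of all genes were. The list's median was 0.23, against -0.25 over all genes. Among its 15 genes found in 20% of cells the median was 0.04, against -0.10 over all such genes. Cavin2, which encodes a coat protein of caveolae abundant in platelets, stood at 90.8, 118, 177 and 138 CPM in positive and 66.8, 14.1, 69.9 and 44.3 CPM in zero cells (1.62 ± 0.44), with no overlap, as for 1.24% of all genes. An antisense gene, 9330175M20Rik, overlaps it. Vwf, the von Willebrand factor gene that marks platelet-biased HSCs, stood at 92.5, 179, 47.1 and 171 against 129.9, 42.5, 42.2 and 41.3 CPM (0.99 ± 0.49, unadjusted p = 0.0684, edgeR). Positive cells of libraries 2 and 4 were high, library 3 differed little and library 1 had the opposite order. Vwf was found in 34 of 59 Slamf1-positive cells and 70 of 204 Slamf1-zero cells, and at equal depth in 50.9% and 27.5%. Itga2b, the platelet integrin gene, had -0.51 ± 0.83, and the summed list was 2722 to 3194 CPM in positive and 2516 to 2755 CPM in zero cells, which overlapped.

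The aged HSC list had 5 of 24 tested genes at an unadjusted p below 0.05, all higher in positive cells, against 1.15% of all genes (median 0.26). These were Clu, Cavin2, Jun and Aldh1a1, which the lists above also hold, and Mllt3. Mllt3, a chromatin reader gene that maintains HSCs, stood at 691, 779, 1074 and 812 CPM in positive and 588, 674, 598 and 755 CPM in zero cells (0.36 ± 0.14). In the HSC identity list 3 of 34 were higher at that p, Ifitm1, Mllt3 and Pdzk1ip1 (0.26 ± 0.12), and 0 were lower, with a median of 0.02. These lists were drawn up with earlier results of these data known, so their counts are not independent of the samples.

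Genes with lower values in the Slamf1-positive cells came from several functions. Lin37, a subunit of the DREAM complex that represses cell cycle genes in resting cells, stood at 61.8, 21.9, 24.2 and 35.9 CPM in positive and 131, 64.5, 109 and 92.6 CPM in zero cells (-1.51 ± 0.41, unadjusted p = 0.0034, edgeR). It overlaps Hspb6 on the opposite strand. Tubb5, a beta tubulin gene, was at 449, 437, 342 and 323 against 667, 507, 744 and 472 CPM (-0.59 ± 0.17). For both genes every positive value lay below every zero value, as for 3.53% of all genes.

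H2afy, which encodes the histone variant macroH2A1, stood at 20.3, 47.2, 61.9 and 27.9 CPM in positive and 131, 88.1, 114 and 99.8 CPM in zero cells (-1.55 ± 0.44), and Anp32e, a chaperone of the variant H2A.Z, at 76.5, 97.7, 116 and 43.01 against 211, 148, 173 and 118 CPM (-1.01 ± 0.30). Cmtm7, a membrane protein gene of the MARVEL family, was at 629, 455, 245 and 709.9 against 798, 785, 834 and 789 CPM (-0.73 ± 0.23). Zero cells held it at a nearly even level, and the positive cells of library 3 were the lowest. Rsad2, the interferon-induced antiviral gene viperin, had 6.49, 34.8, 30.9 and 21.3 against 35.6, 125, 72.9 and 60.99 CPM (-1.74 ± 0.51). None of these 4 genes overlapped between the sides, as was so for 3.53% of all genes in that direction. These 4 genes, like Lin37 and Tubb5, were picked for a low p, so their lack of overlap is no separate evidence.

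A further 3 genes of the lowest p were sparse. Hist1h1b, a linker histone gene made in S phase, had counts in 4 of 59 Slamf1-positive cells and 23 of 204 Slamf1-zero cells, at 0, 1.43, 1.34 and 0 against 15.2, 38.6, 44.5 and 31.8 CPM. Ago4, of the argonaute family, had counts in 2 of 59 Slamf1-positive cells and 15 of 204 Slamf1-zero cells. 1700066B19Rik had counts in 1 of 59 Slamf1-positive cells and 20 of 204 Slamf1-zero cells. Positive cells held so few counts of these 3 genes that no fold is given, and DESeq2 called all 3 (adjusted p = 0.00545 for Hist1h1b, 0.0321 for Ago4 and 0.0337 for 1700066B19Rik).

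Lymphoid and progenitor genes were mixed. Of 16 tested genes 1 was higher and 2 were lower at an unadjusted p below 0.05, against 1.15% and 2.58% of all genes. The median was -0.41, against -0.25 over all genes. For the list's 10 genes found in 20% of cells it was also -0.41, against -0.10 over all such genes. Cd27, the receptor that the sort was designed around, stood at 79.98, 152, 258 and 49.6 CPM in positive and 203, 199, 246 and 170.2 CPM in zero cells (-0.84 ± 0.32, unadjusted p = 0.0216, edgeR). It was lower in libraries 1, 2 and 4 and slightly higher in library 3, and the ranges overlapped. Vamp1 overlaps it on the opposite strand. Cd27 was found in 32 of 59 Slamf1-positive cells and 121 of 204 Slamf1-zero cells, and at equal depth in 43.9% and 54.9%. H2-DMa, a chaperone gene of MHC class II loading, had -0.46 ± 0.21 and was lower in 4 of 4 libraries. Mef2c, a transcription factor gene of lymphoid and myeloid cells, was higher in all 4 (0.49 ± 0.20) and was found at equal depth in 85.96% of positive and 67.9% of zero cells.

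Flt3, the receptor that marks multipotent progenitors, had counts in 2 of 59 Slamf1-positive cells and 27 of 204 Slamf1-zero cells. Nearly all of its positive counts came from 1 cell of library 4, and the unadjusted p was 0.064 (edgeR). Cd34, which is low on long-term HSCs, stood at 60.1, 111, 63.2 and 106 CPM in positive and 129.6, 94.5, 159.9 and 100.2 CPM in zero cells (-0.51 ± 0.37), higher in 2 libraries and lower in 2. H2-Aa, of MHC class II, had -0.50 ± 0.49. Cd44, the hyaluronan receptor of the adhesion list, stood at 17.7, 26.2, 13.4 and 18.9 against 70.6, 62.5, 56.2 and 42.4 CPM (-1.59 ± 0.59, unadjusted p = 0.0201, edgeR), with no overlap, as for 3.53% of all genes.

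**Figure D4:**
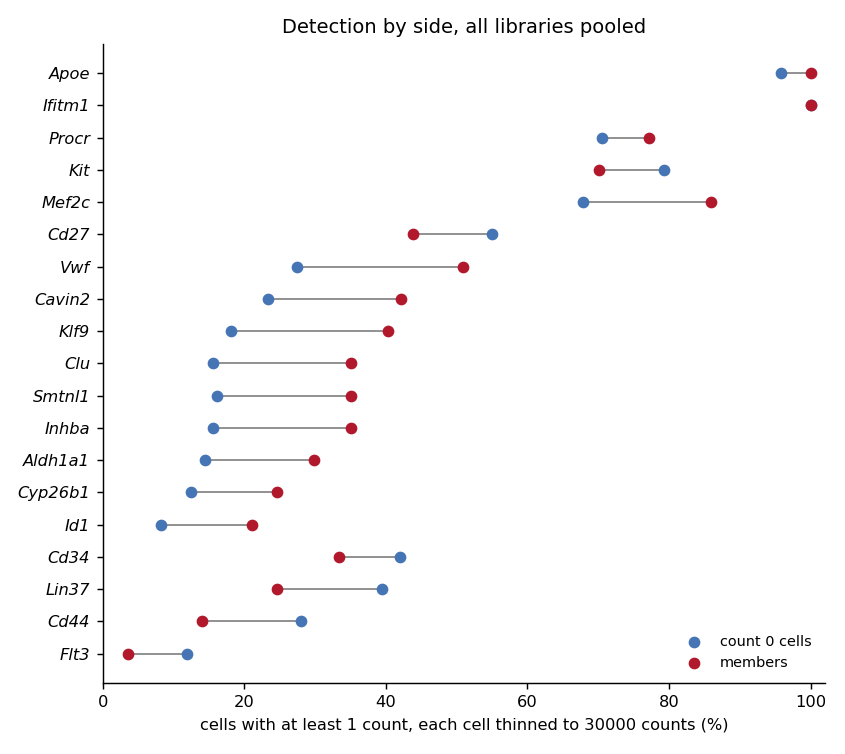
Share of cells with at least 1 count of each gene after every cell was thinned to 30000 counts, in Slamf1-zero (blue) and Slamf1-positive cells (red), libraries pooled. Vwf is found in 50.9% of positive and 27.5% of zero cells, and Procr in 77.2% and 70.5%. Ifitm1 is found in every cell, so its share cannot show a difference.

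Division genes had low counts on both sides. In the G2/M list 0 of 17 tested genes were higher and 3 were lower at an unadjusted p below 0.05, against 1.15% and 2.58% of all genes. The 3 were Cenpe, Nusap1 and Tacc3, genes of the mitotic spindle. Cenpe was found in 2 of 59 Slamf1-positive cells and 17 of 204 Slamf1-zero cells, Nusap1 in 2 of 59 Slamf1-positive cells and 14 of 204 Slamf1-zero cells and Tacc3 in 3 of 59 Slamf1-positive cells and 21 of 204 Slamf1-zero cells. The list summed to 773 to 1383 CPM in positive and 876 to 2035 CPM in zero cells, lower in 2 of 4 libraries. In the S phase list 0 of 22 had an unadjusted p below 0.05 in either direction, with sums of 1281 ± 506 and 1582 ± 584 CPM. The medians of -1.63 and -0.50 rest largely on genes found in few cells. Among those in 20% of cells they were -0.38 and -0.37, over 7 and 12 genes. Cyclins, CDKs and CDK inhibitors had 0 of 14 in either direction (median 0.05), and Cdk6 stood at 48.4, 54.3, 132 and 0 against 46.6, 30.9, 40.2 and 55.7 CPM.

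Metabolic and immune lists held few genes at an unadjusted p below 0.05. Of all genes 1.15% were higher and 2.58% lower at that p, and their median was -0.25. Among all genes found in 20% of cells the median was -0.10. All 17 glycolysis and all 27 oxidative phosphorylation genes tested were found in 20% of cells, so -0.10 is the value to set beside their medians. Glycolysis had 0 of 17 (median -0.04) and oxidative phosphorylation 0 higher and 1 lower of 27 (median -0.09). Interferon response genes had 0 higher and 2 lower of 28 (median -0.15), and their sums of 5613 ± 808 and 5535 ± 863 CPM overlapped. Antigen presentation had 0 higher and 1 lower of 17, adhesion and niche genes 0 higher and 1 lower of 18, and TGF-beta and BMP genes 1 each of 16. Myeloid and erythroid lists had none of 8 and 9, with medians of 0.13 and -0.13.

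**Figure D5:**
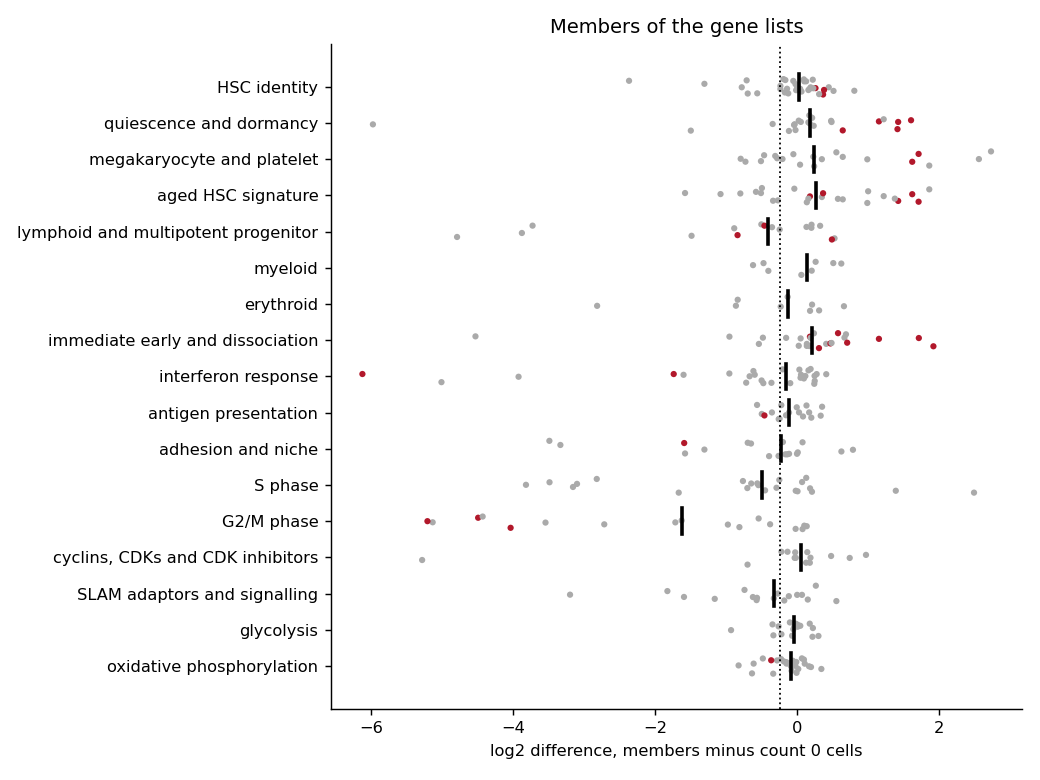
Log2 difference, Slamf1-positive minus Slamf1-zero cells, of each tested gene in 17 lists, with red points for an unadjusted p below 0.05, black bars at the list medians and a dotted line at the median of all genes tested (-0.25). Red points lie only on the higher side in the HSC identity, dormancy, platelet, aged HSC and immediate early lists. They lie only on the lower side in the G2/M, interferon, antigen presentation, adhesion and oxidative phosphorylation lists.

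Of the other SLAM receptors, Cd84 and Slamf8 were abundant enough to be tested, and neither had an unadjusted p below 0.05. Cd84, a neighbour on the chromosome and the other matched receptor of the family found in many cells, stood at 125, 152, 82.02 and 82.7 CPM in positive and 105, 203, 96.6 and 155 CPM in zero cells (-0.32 ± 0.30), and was found in 30 of 59 Slamf1-positive cells and 109 of 204 Slamf1-zero cells. Slamf8 had counts in 6 of 59 Slamf1-positive cells and 13 of 204 Slamf1-zero cells (0.82 ± 2.53). Cd48, whose absence at the surface was part of the sort, had counts in 0 of 59 positive cells and in 2 of 204 zero cells. A limit of 3 counts puts the share of positive cells with a Cd48 count at up to 5.08%, for counting error only, and sets no limit on the share of cells that express it. Ly9 was likewise at 0 of 59 and in 10 of 204 zero cells, at 0.644, 12.1, 11.2 and 4.18 CPM. It overlaps Cd244a on the opposite strand, so their reads may not be told apart. Slamf6, Slamf7, Slamf9 and Cd244 were not analysed here.

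Signalling genes of the SLAM pathway had 0 of 17 at an unadjusted p below 0.05, with a median of -0.33, against -0.25 over all genes. For the 13 found in 20% of cells the median was -0.27, against -0.10 over all such genes. Sh2d1a, the gene of the adaptor SAP, had counts in 0 of 59 positive and 1 of 204 zero cells. Fyn, the kinase that SAP recruits, was found in 4 of 59 Slamf1-positive cells and 29 of 204 Slamf1-zero cells. The phosphatase genes Ptpn6 (-0.27 ± 0.21), Ptpn11 (-0.57 ± 0.42) and Inpp5d (-0.57 ± 0.52) all differed by less than 2 SE. Of Becn1, Pik3c3, Pik3r4 and Uvrag, which form the phosphatidylinositol 3-kinase complex that CD150 engages on phagosomes, Becn1 (-1.59 ± 1.55) and Pik3c3 were lower in positive cells of 4 of 4 libraries. So were 978 of all 9776 genes tested. Pik3r4 (-0.001 ± 0.43) and Uvrag (-0.18 ± 0.66) were higher in 2 of 4 libraries. Pik3c3 stood at 5.19, 23.4, 20.2 and 23.2 against 55.6, 36.8, 33.04 and 27.97 CPM (-1.16 ± 0.86). Vav1 had 0.26 ± 0.30 and Prkcq 0.55 ± 0.41, and Rasa1, with -3.20 ± 1.47 and an unadjusted p of 0.0504 (edgeR), was the member nearest to that threshold. Of its counts on that side, 77.4% came from 1 cell.

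Among the Slamf1-positive cells, those with high and with low Slamf1 counts were set side by side for several of the genes above. The 13 cells with counts of 3 to 9 were too few to test per library. Their median total was 66496 counts against 118649 for the 46 cells with at least 10, so depth differed as well. Pooled over libraries, Gimap5 stood at 189 CPM in the low and 416 CPM in the high cells, Smtnl1 at 32.8 and 149.6, Clu at 69.5 and 151 and Cavin2 at 49.99 and 136. Vwf stood at 61.7 and 151 CPM and Cd84 at 17.97 and 137. For Gimap5, Smtnl1, Clu, Cavin2 and Vwf the low-count cells lay closer to the pooled Slamf1-zero cells, which stood at 235, 36.6, 47.3, 45.9 and 60.4 CPM in that order, whereas for Cd84, at 146 CPM in zero cells, the high-count cells did. Klf9 (120.3 and 101 CPM) and Mllt3 (1212 and 701) were not lower in the low-count cells. These values come from cells of unequal libraries and carry no test. The low and high cells were split by the same Slamf1 count that chose them, and 46 of the 59 positive cells were high. Gimap5, Smtnl1, Clu and Cavin2 had been named for a low p between positive and zero cells. For these genes the gap between high and zero cells follows largely from that choice. Whether any gene rises with Slamf1 among the positive cells was not tested.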

How the data were processed

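Deposited values were raw counts for 13742 genes and 297 cells, per the file headers. Per the submitters' processing notes the authors used Trimmomatic 0.36, HISAT2 2.1.0 and HTSeq 0.9.1 on GRCm38. Whether reads were collapsed by molecular identifier, and the strand used in counting, are not given in the sources used here, so counts may include PCR copies. The labels do not say that the libraries came from separate mice, and p-values measure only the spread between these 4 libraries.

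Of 292 cells with at least 10000 counts and 1000 genes, 15 lay in the runs left out, which gave 277 with 14613 to 346876 counts. No doublet caller was run. Counts summed per library and side were tested with edgeR 4.0.16 (TMM, filterByExpr, robust quasi-likelihood fit, library as block). The fit was also run on simulated sums. These were drawn with edgeR's own estimates of spread, and only genes of higher level were changed, so they cannot check the fit for sparse genes. Alternatives used DESeq2 1.42.0, limma 3.58.1 on the mean log2(CPM + 10) of cells, other scalings, filters and thresholds, and thinning to 30000 counts, which left out 13 cells, 2 of them Slamf1-positive. Each SE of a log2 difference in edgeR was the size of that difference divided by the square root of the test's F value. It was not a separate estimate of the fit, and is approximate for sparse genes. Positions came from GENCODE M21.

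Members, lists and the rule for named genes were chosen with earlier results of these data known. The rule takes the 10 genes of lowest p in each direction, detected sorting antigens and SLAM receptors, tested SLAM signalling genes, the 3 genes of lowest p in each other list, and the 5 genes of highest and lowest rank correlation with Slamf1. Other genes named here (Klf2, Zfp36, Cyp26b1, Aldh1a1, Rarb, Fos, Cdkn1c, Itga2b, Flt3, Cd34, H2-Aa, Cdk6, Sh2d1a, Cxcl2 and markers of HSCs and other cell types) were chosen after their values were seen. Some genes that the rule or the lists name are not reported here.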

Additional observations from a re-analysis of the deposited data

Results flagged for a closer look

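Of 79 sets of 4 library values examined, 5 had a library whose gap to the nearest other exceeded Dixon's 95% critical value, which chance gives in about 1 of 20 sets. Vwf in the Slamf1-zero cells stood at 130 CPM in library 1 (129.861), with the other libraries at 41.3 to 42.5 CPM. Tmsb4x in the Slamf1-zero cells was lowest in library 1, at 3649 CPM (3649.4), against a highest value of 4089.5 CPM. Ier2 in the Slamf1-zero cells was highest in library 4, at 1841 CPM (1841.46), against a lowest value of 1228 CPM. Dnajb1 in the Slamf1-positive cells was highest in library 4, at 664 CPM (663.576), against a lowest value of 524 CPM. 1700066B19Rik in the Slamf1-positive cells had counts in library 1 alone, at 0.432 CPM.

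The runs of 8 cells that the rule leaves out held 1 cell, in library 4, with a Slamf1 count of 37. The other passing cells of these runs included 13 with a Slamf1 count of 0.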

How the results depend on the processing

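The count of 0 genes called held under upper quartile scaling, thinning, sides redefined on thinned counts, thresholds of at least 1 or at least 10 Slamf1 counts, cells with at least 50000 counts and with the runs of 8 cells kept. It also held in both settings added after the data were seen, genes in 20% of cells and no robust estimation. The paired fit with library as a block was the reported one, and with no replicate block 0 genes were called as well. DESeq2 called 38. Without a filter on low counts, and with each cell weighing the same, 1 gene was called each time, Apoe. Leaving out each library in turn gave 0 to 1 called genes: without library 1 the 1 gene was Cxcl2, of whose counts in Slamf1-positive cells 96.2% came from 1 cell. Of 620 values of 37 named genes under the alternatives, 606 kept direction and side of the threshold, 13 moved past it and 1 turned. The value that turned was that of H2afy, at 0.079 (log2) with sides redefined on thinned counts. Most of these genes were picked for a low p, and the alternatives largely reuse the same cells. The main fit called none of them, so keeping the side of the threshold means not called in either setting. The 606 values are thus no separate evidence for these genes. The median log2 difference of all genes moved from -0.25 to -0.048 without the block, 0.025 with each cell weighing the same and -0.40 without the filter, and the cause was not tested. With 10 to 22 Slamf1-positive cells per library, sparse genes limit what could be called.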

Other observations

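Within each library, thinned cells were ranked by Slamf1 and by each of 5393 genes found in 20% of cells, and the correlation of the ranks is given without a p since cells of a library share its depth and preparation. The highest mean Spearman rho over 4 libraries was 0.25 ± 0.14 (SD) for Hnrnpu, a nuclear RNA-binding protein gene, followed by Inhba (0.23 ± 0.073), the activin subunit gene, Cavin2 (0.23 ± 0.18), Smtnl1 (0.23 ± 0.23) and Klf9 (0.22 ± 0.14). Hnrnpu had 5.62, 6.20, 5.38 and 5.67 CPM in the Slamf1-positive and 2.15, 2.86, 7.37 and 7.21 CPM in the Slamf1-zero cells of libraries 1 to 4, higher in 2 of 4 libraries. Inhba stood at 112, 75.8, 137 and 133 CPM in positive and 51.7, 51.4, 13.0 and 44.0 CPM in zero cells (1.63 ± 0.50, log2 difference ± SE). Its sides did not overlap, as for 1.24% of all genes. Inhba was picked for its correlation with Slamf1, whose count defined the sides, so its lack of overlap is no separate evidence. The lowest mean rho was -0.23 ± 0.066 for Cmtm7, followed by Ncoa4 (-0.21 ± 0.056), which encodes a ferritin receptor of autophagy, Tbp (-0.19 ± 0.10), the TATA-binding protein gene, Armc3 (-0.19 ± 0.074) and Iqgap2 (-0.18 ± 0.12). All 10 correlations were weak in sparse counts and describe these cells only.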
